A study of Mus musculus with 14 samples.

Results

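The genes described here carry glucose into activated T cells, break it down to lactate, import amino acids and make polyamines, together with the transcription factor genes Myc and Hif1a. They are 33 genes chosen by symbol, all of them present among the 14732 genes of the table without IFN-beta and the 12843 genes of the table with it, out of 15036 genes in either table. By role they comprise 4 transporters of glucose and lactate, 10 genes of the preparatory steps of glycolysis, 8 genes of its payoff steps and the fate of pyruvate, 6 amino acid transporters, 3 enzymes of polyamine synthesis and the 2 transcription factors. The cells were naive CD8 T cells (CD62L high, CD44 low) sorted from spleens of C57BL/6 mice, either wild type or Morrbid-/-. Morrbid is a long noncoding RNA gene that lies near Bcl2l11. All were cultured for 6 h with plate-bound anti-CD3 and soluble anti-CD28, each at 1 µg/mL. One set, of 3 wild-type and 3 Morrbid-/- libraries, received nothing more, and the other, of 4 and 4, also received 20 ng/mL recombinant IFN-beta. Whether the replicates were separate mice is not stated, so p-values reflect the spread among libraries that may differ only technically. The extent of the Morrbid deletion is not stated either, and genotypes are used as labelled.

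When a T cell is activated it raises the uptake of glucose and amino acids and turns most of the glucose into lactate. MYC is known to drive this programme, including the amino acid transporters and ornithine decarboxylase, the entry enzyme of polyamine synthesis, while HIF-1 drives glycolytic genes and pyruvate dehydrogenase kinase, which keeps pyruvate out of the mitochondria. Both factors bind short DNA letters, an E-box for MYC and a shorter core for HIF-1, in the promoters of many such genes.

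Of the 33 genes, 27 had promoters in the RefSeq table of GRCm38.p6, each window running from 250 bases before to 50 bases after a transcript start. The E-box CACGTG, searched on both strands, was found in promoters of 6 of these 27 genes (Hif1a, Ldha, Pfkfb3, Pfkm, Slc16a1 and Sms). Of all 27025 genes in that table, 8.09% had such a match. By window it was in 6 of the 42 of these genes, against 7.15% of all 32851 windows. The core ACGTG, which every E-box also holds, was found in 17 of the 27 genes, against 21.8% of all genes. By window it was in 20 of the 42, against 19.6% of all windows. A gene with more windows has more places for a match, which the shares by gene do not take into account. For each of the 4 genes whose level differed between the genotypes with IFN-beta 1 promoter window is printed, on the plus strand of GRCm38.p6, because windows with and without these letters are among them. Capitals mark the E-box and core matches.
Odc1, chr12:17544623-17544922: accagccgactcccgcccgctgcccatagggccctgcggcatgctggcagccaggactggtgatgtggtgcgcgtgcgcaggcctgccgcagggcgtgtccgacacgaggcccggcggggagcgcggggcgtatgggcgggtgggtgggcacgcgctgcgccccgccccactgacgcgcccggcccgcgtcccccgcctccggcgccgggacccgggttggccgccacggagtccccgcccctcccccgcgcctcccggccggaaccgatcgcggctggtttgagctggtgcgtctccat
Hif1a, chr12:73907617-73907916: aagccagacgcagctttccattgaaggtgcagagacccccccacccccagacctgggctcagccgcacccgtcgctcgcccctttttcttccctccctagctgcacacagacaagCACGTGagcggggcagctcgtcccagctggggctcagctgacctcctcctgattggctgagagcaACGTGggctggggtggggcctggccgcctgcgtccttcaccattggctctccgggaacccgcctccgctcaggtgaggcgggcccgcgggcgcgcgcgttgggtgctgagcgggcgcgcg
Pdk1, chr2:71872974-71873273: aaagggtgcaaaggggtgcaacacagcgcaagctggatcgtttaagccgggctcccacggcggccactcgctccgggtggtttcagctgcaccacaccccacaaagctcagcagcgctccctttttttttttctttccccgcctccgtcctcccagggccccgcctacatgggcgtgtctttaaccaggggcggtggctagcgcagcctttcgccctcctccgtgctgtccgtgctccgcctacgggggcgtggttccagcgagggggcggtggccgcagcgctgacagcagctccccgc
Ldha, chr7:46845554-46845853: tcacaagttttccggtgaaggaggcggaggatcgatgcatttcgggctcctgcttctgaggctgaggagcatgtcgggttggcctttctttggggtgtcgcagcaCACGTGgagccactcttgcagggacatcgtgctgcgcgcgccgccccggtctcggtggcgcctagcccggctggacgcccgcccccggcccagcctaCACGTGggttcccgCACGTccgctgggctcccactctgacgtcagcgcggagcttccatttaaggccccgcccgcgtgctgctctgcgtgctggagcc
The printed Ldha window held 2 E-boxes and the Hif1a window 1, whereas the Odc1 and the printed Pdk1 window held neither CACGTG nor ACGTG. Other forms of the HIF-1 core were not searched. Ldha and Pdk1 each have another window in the table, at chr7:46846832-46847131 and chr2:71874654-71874953, which held neither motif and is not printed. A match describes letters only, and the absence of one says nothing of the factor.

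The libraries held 1747634 to 2963149 recovered reads without IFN-beta and 5788070 to 7355337 with it. Mitochondrial 16S rRNA took up 11.6% to 18.9% of reads without IFN-beta and 9.05% to 12.01% with it. All 9 markers of CD8 T cells were expressed, and 0 of 9 were called higher or lower in either set. The listed markers of B cells, CD4 T cells, NK cells and myeloid cells were absent or low. The summed level was at most 28.4 normalized counts in any library for the B cell list and 33.9 for the NK list. Of the B cell list Cd79a reached the test with IFN-beta, at 11.6 in wild type and 16.9 in Morrbid-/- (limma adjusted p = 0.413). Morrbid, listed as Gm14005, had 1.79, 4.16 and 1.53 normalized counts in wild type and 7.10, 5.24 and 7.16 in Morrbid-/- libraries without IFN-beta, from 2 to 7 reads each, and was not analysed here with IFN-beta. These few reads show no loss of Morrbid and do not check the labels. In bulk RNA, fewer cells of a type and less RNA per cell cannot be told apart.

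Without IFN-beta no gene of the group passed the limma test between genotypes as fitted, without a replicate block, and most were slightly higher in Morrbid-/- libraries without passing. Values are deposited normalized counts, and fold changes are Morrbid-/- minus wild type on the log2(normalized count + 1) scale. Of the 33 genes, 30 had a mean of at least 10 and were tested; Slc16a3, Pfkm and Aldoc were lower than that. By limma, which found 0.538% of all 9290 genes higher and 0.0969% lower at a Benjamini-Hochberg adjusted p of 0.05, 0 of the 30 were higher and 0 lower. Likewise edgeR and DESeq2, on reads recovered from the tables, called 0. At an unadjusted p under 0.05 there were 2 of 30, Myc and Slc7a5, where 6.1% of all genes tested had such a p. The fold change was positive in 23 and negative in 7 of the 30, with a median of 0.09 against -0.01 over all genes tested. Without wild-type replicate 2 the median was 0.02.

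**Figure D1:**
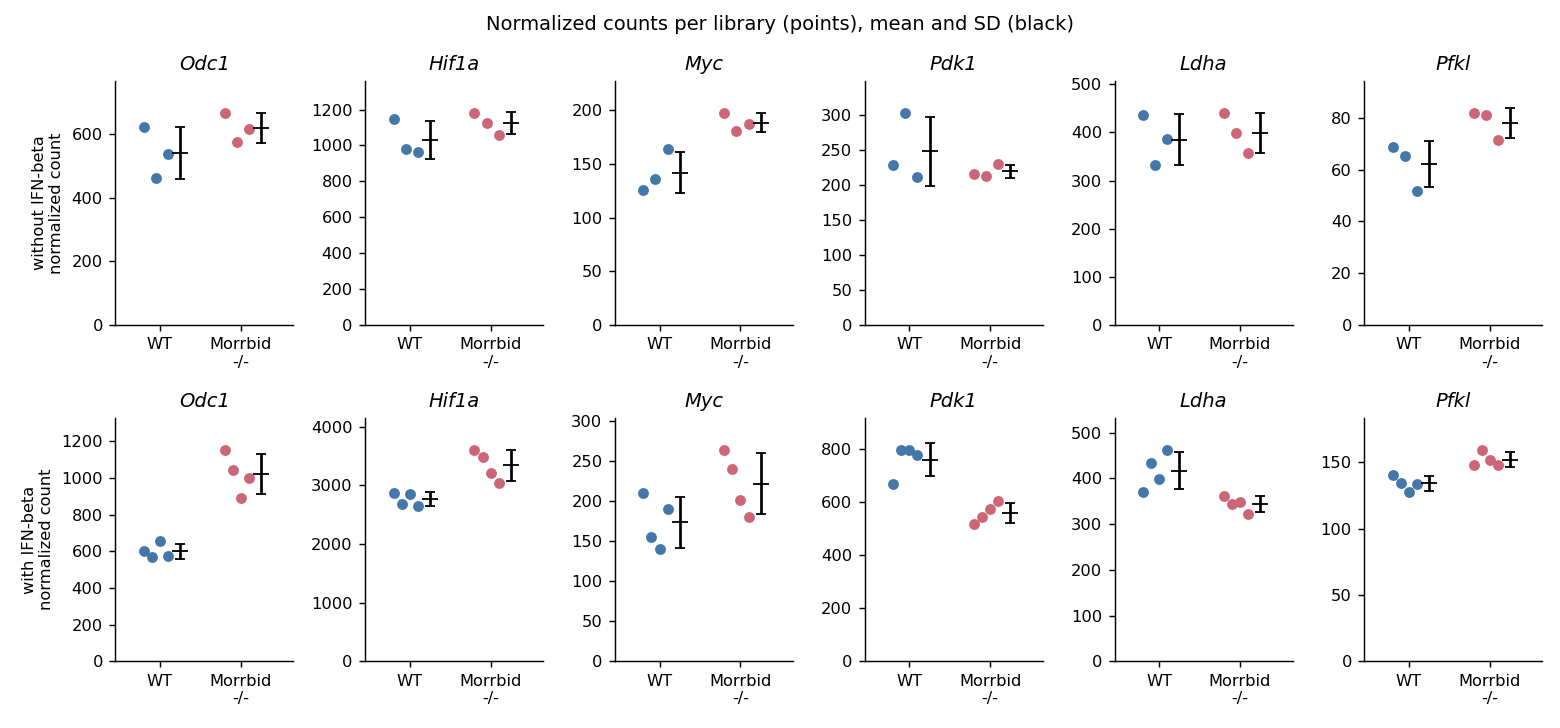
Normalized counts of Odc1, Hif1a, Myc, Pdk1, Ldha and Pfkl (vertical axes from 0, each panel on its own scale) by genotype, without IFN-beta above and with it below; points are libraries and black bars the mean and SD. The Morrbid-/- points of Odc1 and Hif1a lie above all wild-type points with IFN-beta, and those of Pdk1 and Ldha lie below them.

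Myc, the transcription factor gene, had the smallest p without IFN-beta. Wild-type libraries had 126, 136 and 164 normalized counts and Morrbid-/- libraries 198, 181 and 187, with no overlap. The difference was 0.41 (SE 0.13; 95% interval 0.15 to 0.68), or 1.33-fold, and did not pass (limma adjusted p = 0.305). It passed in 1 of 17 alternatives, under a replicate block (limma adjusted p = 0.0355), the range over all 17, edgeR and DESeq2 included, being 0.0355 to 0.961. The 16S rRNA share splits these libraries into 3 with more (wild-type replicates 1 and 2 and Morrbid-/- replicate 1) and 3 with less. Within them Myc differed by 0.59 and 0.17, and the median over the 30 genes was 0.23 and 0.02. Pfkl went the other way, at 0.29 and 0.54. The first subset holds only 1 Morrbid-/- library and the second only 1 wild-type library, and a link to the share was not tested. Slc7a5, the large neutral amino acid transporter, held 142, 123 and 131 in wild type and 179, 141 and 159 in Morrbid-/-, so that the groups overlapped (0.27, SE 0.13; limma adjusted p = 0.813). Pfkl, the liver-type phosphofructokinase, was at 68.8, 65.6 and 52.0 against 82.1, 81.2 and 71.6 (0.34, SE 0.17; limma adjusted p = 0.814), and the difference was 0.22 without wild-type replicate 3. Odc1, ornithine decarboxylase, was at 624, 462 and 537 against 668, 576 and 616, overlapping (0.20, SE 0.11; limma adjusted p = 0.843). For Odc1 the difference was 0.31 without wild-type replicate 1 and 0.10 without wild-type replicate 2. Aldoa, aldolase A, was at 349.5, 297 and 368 against 384, 372 and 387 (0.18, SE 0.11; limma adjusted p = 0.878), with a difference of 0.09 without wild-type replicate 2. Pfkl, Aldoa, Myc and Ldhb, at few reads, had all Morrbid-/- libraries above all wild-type ones, 4 of 30 against 5.53% of all genes; 0 of 30 had all below, against 5.39%.

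Among the other steps of glycolysis, Pfkfb3, which makes an activator of phosphofructokinase, had the lowest log2 difference without IFN-beta (-0.18), at 159 ± 12 against 140.03 ± 13.1 (SD, n = 3 each). The glucose transporter genes Slc2a1 and Slc2a3 differed by 0.06 and 0.03, and the lactate transporter gene Slc16a1 by -0.01. Of the genes of the payoff steps and the fate of pyruvate, Gapdh, Pgk1, Pgam1, Eno1, Pkm and Ldha lay between 0.05 and 0.19. Each of their intervals included 0, that of Gapdh running from -0.22 to 0.33. Pdk1 had 229, 303 and 211 normalized counts against 216, 212 and 229 (-0.16), Ldha 437, 332 and 386 against 441, 399 and 358 (0.06), and Hif1a 1149.5, 978 and 962 against 1182, 1128 and 1059 (0.13). All 3 overlapped between the genotypes. Hk1, Hk2, Gpi1, Pfkp and Tpi1 lay between -0.10 and 0.18. Of the untested genes, Slc16a3 and Aldoc stood at 0 to 3.58 normalized counts and Pfkm at 3.58 to 11.4. The other amino acid transporters Slc3a2, Slc7a1, Slc1a5, Slc38a1 and Slc38a2 lay between -0.08 and 0.13. Srm and Sms, which make spermidine and spermine, differed by -0.13 and 0.06.

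With IFN-beta 4 genes passed, in both directions. Odc1 and Hif1a were higher in Morrbid-/- cells, and Pdk1 and Ldha lower. These were 2 higher, 2 lower and 25 not called of 29 tested (Slc16a3, Aldoc, Tpi1 and Ldhb had means under 10), where limma called 5.25% of all 9964 genes higher and 4.84% lower. Calls by edgeR and DESeq2 were the same 2 and 2. Fold changes were positive in 16 and negative in 13, with a median of 0.02, and 6 of the 29 had an unadjusted p under 0.05, against 24.4% of all genes. In 3 genes all Morrbid-/- libraries lay above all wild-type ones (Odc1, Hif1a and Pfkl), against 7.58% of all genes, and in 3 they lay below (Pdk1, Ldha and Pfkp), against 7.60%.

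Odc1, the rate-limiting enzyme of polyamine synthesis, had the largest log2 difference of the 29. In wild type there were 601, 567, 655 and 577 normalized counts, and in Morrbid-/- libraries 1155, 1044, 891 and 997. All 4 Morrbid-/- libraries lay above the highest wild-type one. On average this was 600.02 ± 39.3 against 1022 ± 109 (SD, n = 4 each). That is 0.76 on the log2 scale (SE 0.08; limma adjusted p = 5.17e-07) or 1.697-fold. Odc1 lies on chromosome 12 (17544808 to 17551502 in GRCm38.p6), and 16.6% of the 75-base stretches of its transcripts also occur in pseudogenes, so its count may include reads of those copies. The next enzymes of the branch, Srm and Sms, were at 17.5 against 17.5 (-0.09) and 304 against 288 (-0.08), and neither passed. Mtap, which salvages the methylthioadenosine that polyamine synthesis leaves behind, fell from 181 ± 16.3 to 135 ± 16.1 (fell by 0.43, SE 0.11; limma adjusted p = 0.016). Of the 12 related polyamine and hypusination genes tested, Mtap alone passed. Amd1, which supplies the aminopropyl donor, was at 251 ± 5.05 against 223 ± 13.0 (-0.17, limma adjusted p = 0.246), and the antizyme gene Oaz1 at 343 ± 16.6 against 299 ± 32.9 (-0.20, limma adjusted p = 0.158).

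Hif1a, the oxygen-regulated transcription factor gene (chromosome 12, 73901324 to 73947554), had 2866, 2676, 2859 and 2652 normalized counts in wild-type and 3610.3, 3491, 3216 and 3035 in Morrbid-/- libraries. All Morrbid-/- libraries lay above all wild-type ones. The log2 difference was 0.27 (SE 0.06; limma adjusted p = 0.00453), or 1.21-fold. Pdk1, a pyruvate dehydrogenase kinase gene (chromosome 2, 71873215 to 71903858), held 668, 797, 799 and 779 in wild type and 518, 545, 573 and 603 in Morrbid-/-. It fell by 0.44 (SE 0.08; limma adjusted p = 3.66e-04). The wild-type library at 668 stood apart from the other 3, and was still above every Morrbid-/- library. Ldha, which turns pyruvate into lactate (chromosome 7, 46842274 to 46855627), held 371, 434, 398 and 463 against 362, 343, 349 and 322. It fell by 0.27 (SE 0.08; limma adjusted p = 0.0397), and its 4 Morrbid-/- libraries were all below the wild-type ones. The call was lost, at limma adjusted p-values up to 0.131 (0.0228 to 0.131 over 19 alternatives, edgeR and DESeq2 included), without filtering on low values, after rescaling to equal totals, without the mean-variance trend, and without wild-type replicate 2 or 4 or Morrbid-/- replicate 2, 3 or 4.

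**Figure D2:**
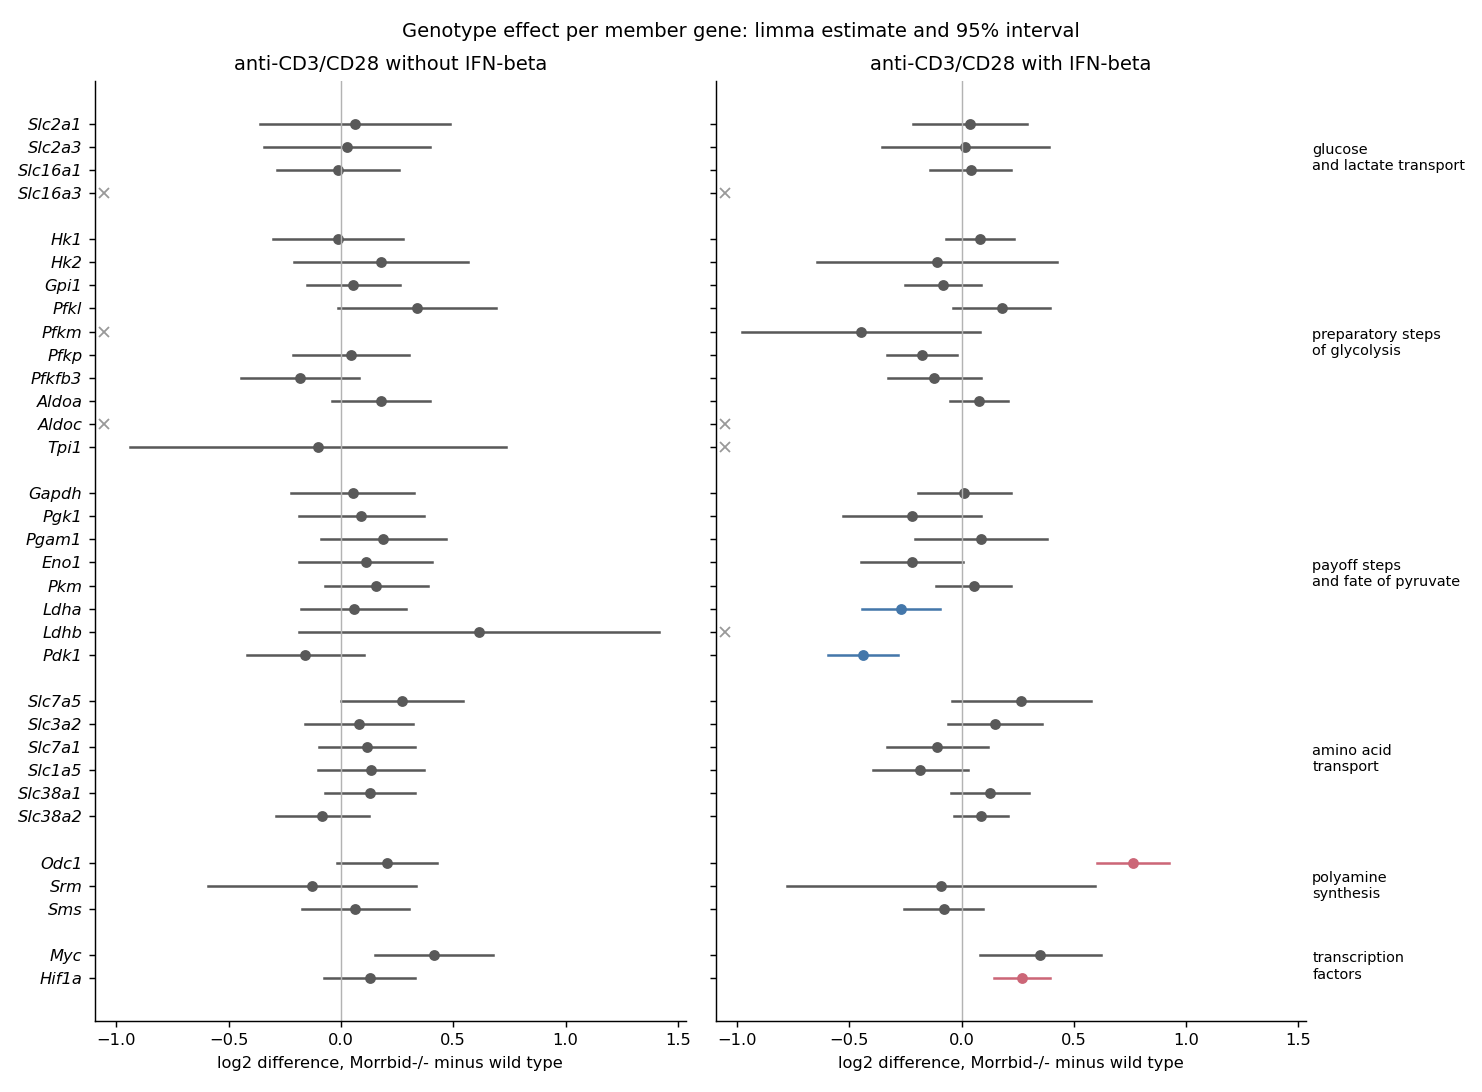
Difference of Morrbid-/- minus wild type on the log2(normalized count + 1) scale, with 95% intervals, for each of the 33 members in both sets, grouped by role. Red points passed as higher and blue points as lower by limma; grey crosses at the left edge are members with a mean under 10, which were not tested.

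The remaining glycolytic genes did not pass with IFN-beta. Pfkp, the platelet-type phosphofructokinase, was at 510, 439, 455 and 444 against 421, 403, 412 and 397 with no overlap (-0.18, SE 0.08; limma adjusted p = 0.153). Pfkl had the opposite sign, at 140, 134, 127 and 134 against 148, 159, 152 and 148 (0.18, SE 0.11; limma adjusted p = 0.314). Eno1, enolase, was at 197 ± 22.3 against 169 ± 19.0 (-0.22, limma adjusted p = 0.222), Pgk1 at 109 ± 23.2 against 92.4 ± 10.2, and Pfkm, the muscle-type phosphofructokinase, at 26.6 ± 6.33 against 19.2 ± 3.72. Pgk1 shares 52.8% of its 75-base stretches with pseudogenes, Pgam1 34.9%, Eno1 23.0% with other genes or pseudogenes and Gapdh 22.6%, so their counts are uncertain. Hk1, a hexokinase gene, was at 1339.7 ± 130.4 against 1415 ± 116, Gpi1 at 878 ± 101 against 828 ± 86, Aldoa at 961 ± 37.4 against 1015 ± 38.0, and Pkm at 590.1 ± 66.5 against 610.3 ± 33.4. Hk2, Pfkfb3, Gapdh and Pgam1 lay between -0.12 and 0.09. The untested Slc16a3, Aldoc, Tpi1 and Ldhb stood at 0 to 15.6 normalized counts in every library.

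Transport genes did not pass with IFN-beta. Slc7a5 was at 90.1 ± 12.1 against 109.5 ± 21 (0.27, SE 0.15; limma adjusted p = 0.285), and Slc3a2, its heavy chain, at 283 ± 32 against 314 ± 39 (0.15). Slc7a1, an arginine transporter gene, and Slc38a1, a glutamine transporter gene, differed by -0.11 and 0.13. The glucose transporter genes Slc2a1 and Slc2a3 and the lactate transporter gene Slc16a1 differed by 0.04, 0.02 and 0.04. Slc1a5, a glutamine transporter gene, was at 279 ± 19.1 against 247 ± 35.5 (-0.18, limma adjusted p = 0.277). Slc38a2, another neutral amino acid transporter gene, was at 1482 ± 64.6 against 1573 ± 45.8 (0.09). Myc held 210, 156, 140 and 190 in wild type and 265, 241, 201 and 181 in Morrbid-/-, with overlap (0.35, SE 0.13; limma adjusted p = 0.0889). It passed by limma in 3 of 19 alternatives, without wild-type replicate 1 (adjusted p = 0.0441), without Morrbid-/- replicate 4 (adjusted p = 0.0312) and under a replicate block (adjusted p = 0.0236), the range over all 19, edgeR and DESeq2 included, being 0.0236 to 0.26. In Morrbid-/- replicate 4 the median of the 29 genes stood at -0.10 relative to the wild-type mean, against 0.01 to 0.04 in the other 3, and 17 of 29 genes were below it.

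**Figure D3:**
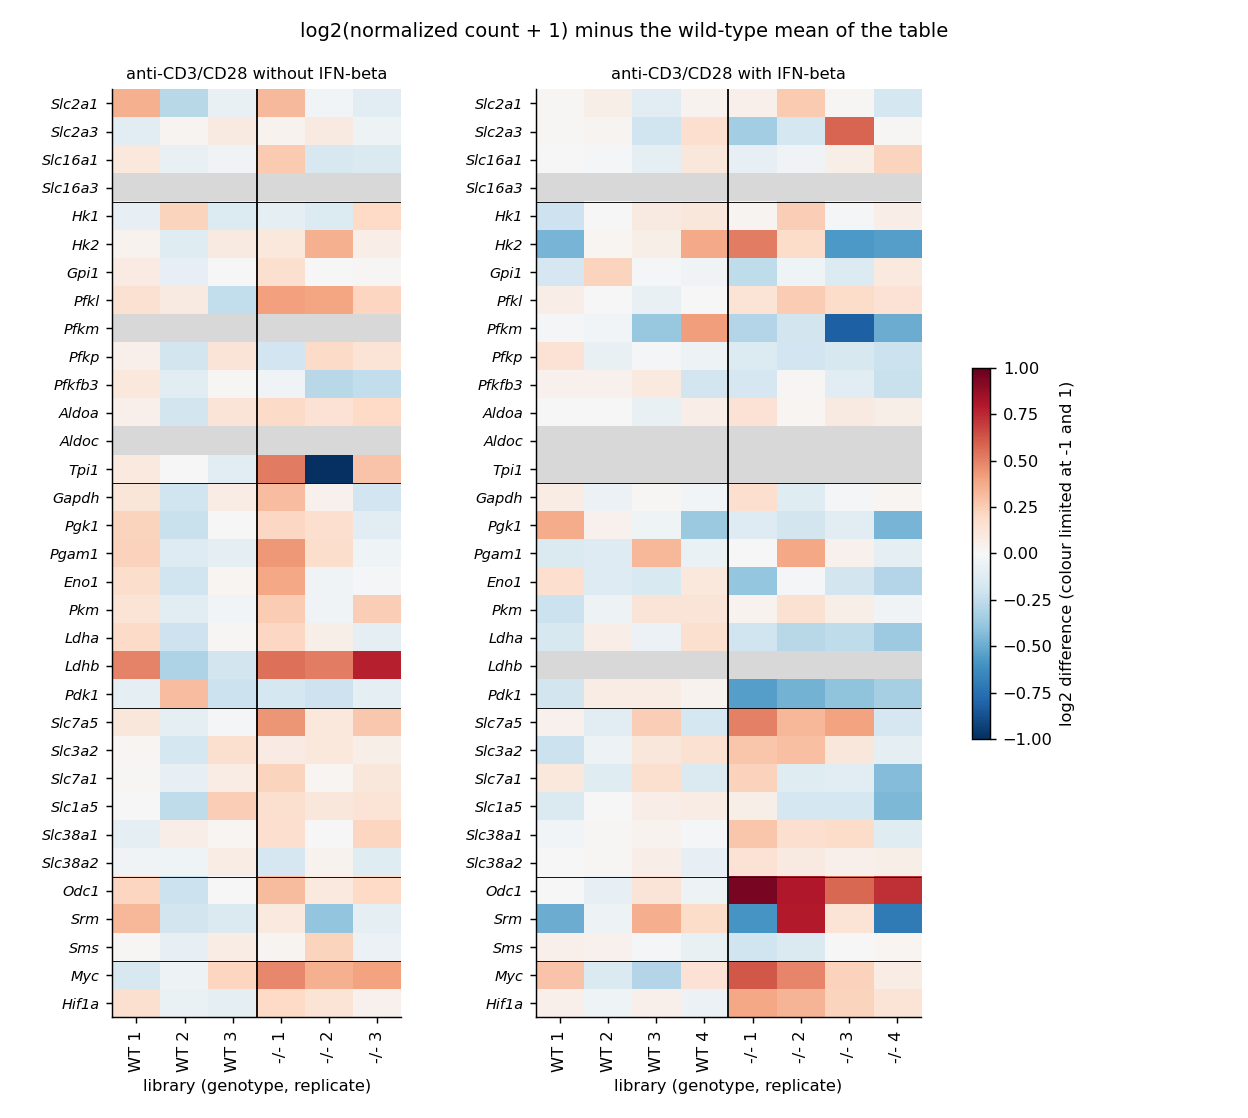
Difference of each library from the wild-type mean of its set, on the log2(normalized count + 1) scale, for every member (vertical axis) in every library (horizontal axis), with red above and blue below; members in grey were not tested. With IFN-beta the Odc1 row is red in all 4 Morrbid-/- libraries and the Pdk1 row blue in all 4.

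Other genes of these pathways were tested in 8 lists, chosen by function with earlier results of these data known. Without IFN-beta limma called 0 of their 89 genes tested, against 0.538% of all genes higher and 0.0969% lower. An unadjusted p under 0.05 was found for 5, against 6.1% of all genes (Mpc2 at 0.71, Pdp2 at 0.52, Emb at -0.30, Mxd1 at 0.36 and Bnip3l at -0.27). Of the 92 genes tested with IFN-beta, limma called Mtap, Rpe, Bnip3l and Mxd1, against 5.25% of all genes higher and 4.84% lower. With IFN-beta, Rpe of the pentose phosphate pathway, 1 of 10 tested, fell from 269 ± 32.8 to 202 ± 18.8 (fell by 0.41, SE 0.10; limma adjusted p = 0.0117), and Bnip3l, a hypoxia-responsive mitophagy gene, 1 of 10 tested of the HIF list, fell by 0.22 (SE 0.07; limma adjusted p = 0.0441). Mxd1, which competes with MYC for its partner MAX, was the only riser, 1 of 8 tested of the MYC network list: its level was 2633 ± 285 against 3606 ± 184 (0.46, SE 0.07; limma adjusted p = 5.98e-05). The lists of other glycolytic enzymes (12 tested), pyruvate entry into mitochondria (12), other nutrient transporters (15) and glutamine, serine and one-carbon metabolism (13) gave 0 calls by limma. Of their 52 genes 9 had an unadjusted p under 0.05, against 24.4% of all genes. Among the smallest were those of Pgm1 (-0.70) and Galm (0.47), Pdp1 (-0.28) and Pdhx (0.31), Slc16a6 (-0.39) and Slc38a9 (-0.27), and Shmt2 (-0.31). Of these edgeR called Slc16a6 lower (edgeR adjusted p = 0.0443; limma adjusted p = 0.0555). For the difference of the effects between stimulations limma called 0 of 88 genes tested over the 8 lists, against 0.441% of all genes higher and 0.892% lower. Among the 88, 5 had an unadjusted p under 0.05, against 12% of all genes, with the smallest p for Mnt (0.54, limma adjusted p = 0.226). Markers of the naive state moved in the same libraries: with IFN-beta 3 of 5 (Lef1, Ccr7 and Tcf7) were higher in Morrbid-/- cells, by 0.41 to 0.52, and without it 0 of 5. The summed level of the 5 ran from 26492 to 27382 in wild type and from 25788 to 28965 in Morrbid-/- libraries. Their part in the changes of Odc1, Hif1a, Pdk1 and Ldha was not tested.

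Odc1 was the only gene of the group whose genotype effect differed between the stimulations by the test. The stimulations were also separate library sets of unlike depth, so IFN-beta and the library set cannot be told apart in such a difference. The difference of the effects, with IFN-beta minus without, could be tested for 28 genes, those reaching a mean of 10 in each table. Here limma called 0.441% of 9078 genes higher and 0.892% lower. For Odc1 it was 0.56 (SE 0.14; limma adjusted p = 0.0321), the effects being 0.20 and 0.76. It was lost in 10 of 20 alternatives, among them the fit without the mean-variance trend, with adjusted p-values from 0.00281 to 0.181 over all 20, by limma or edgeR. The libraries whose removal ended it were wild-type replicates 1 and 3 and Morrbid-/- replicates 2 and 3 without IFN-beta, and wild-type replicates 1, 2 and 4 and Morrbid-/- replicates 1 and 2 with it. By size of p the next were Ldha (-0.33, SE 0.14; adjusted p = 0.333), Slc1a5 (-0.32, SE 0.16; adjusted p = 0.437), Pdk1 (-0.28, SE 0.14; adjusted p = 0.456) and Eno1 (-0.33, SE 0.18; adjusted p = 0.505), all by limma. Leaving out 1 library without IFN-beta moved Slc1a5 to -0.19 (wild-type replicate 2), Pdk1 to -0.44 or -0.18 (wild-type replicate 2 or 3) and Eno1 to -0.19 (Morrbid-/- replicate 1). Slc1a5 had 354, 297 and 420 against 394, 381 and 388 normalized counts without IFN-beta, and 251, 279.5, 291 and 293 against 290.5, 246.5, 246 and 203 with it. Eno1 had 152, 117 and 136 against 175, 131 and 132, and then 221, 179, 176 and 211 against 149, 193, 173 and 159.6. Both genes overlapped between the genotypes in either set. The difference was positive in 8 and negative in 20 of the 28, with a median of -0.08 against 0.01 over all genes tested, of which 51.1% were positive. All 7 genes tested of the payoff steps and the fate of pyruvate, Ldha and Pdk1 among them, were negative, -0.33 to -0.04. So were 5 of the 7 tested of the preparatory steps. No gene of these 2 lists passed by limma or edgeR. Without IFN-beta the median of the payoff and pyruvate list stood at 0.19, -0.20 and -0.01 from the wild-type mean in wild-type replicates 1, 2 and 3. The signs within that list may therefore not be separate. Of the 28 genes 2 had an unadjusted p under 0.05, against 12% of all genes. For Myc the difference was -0.06, and for Hif1a 0.14, neither past the threshold.

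**Figure D4:**
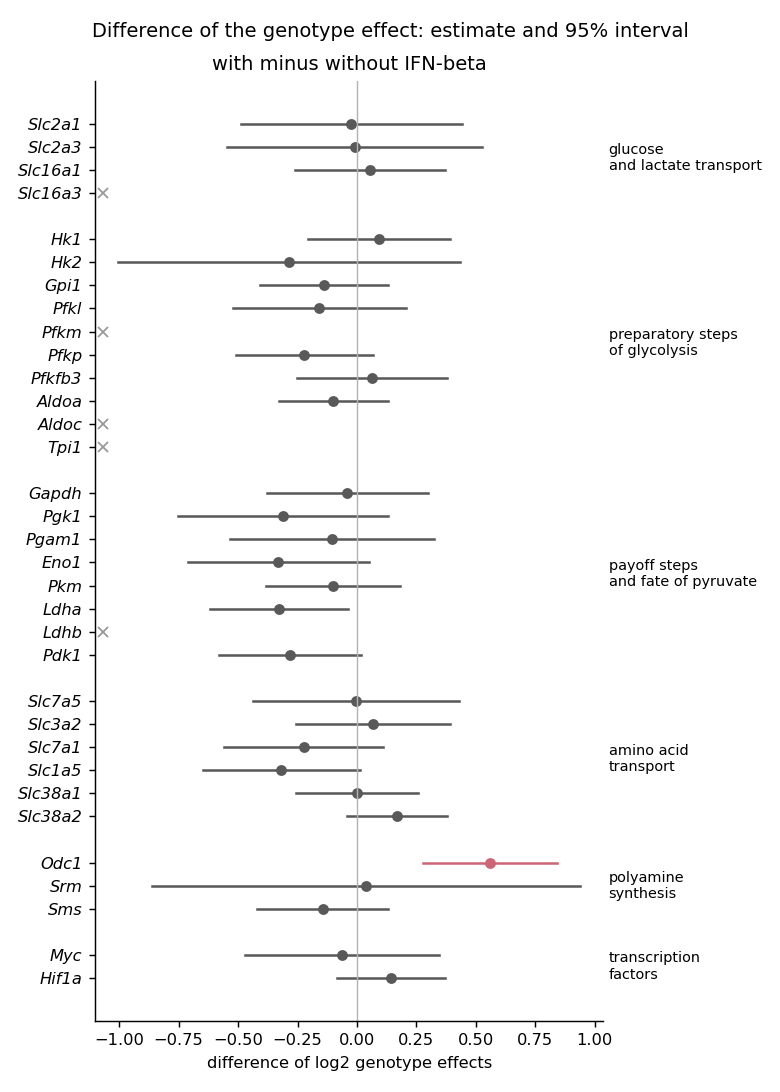
Genotype effect with IFN-beta minus the effect without it, on the log2(normalized count + 1) scale, with 95% intervals, for each member tested in both tables, by role. Odc1 stands at 0.56, and 20 of the 28 genes lie below 0. Every gene tested of the payoff steps and the fate of pyruvate is among those, though none of that list passed.

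The 2 tables were normalized separately and their libraries differed in depth, so an effect of IFN-beta and of the library set cannot be told apart, and levels were set side by side without a test. In wild type, RPM values (reads of a gene over all recovered reads of the library, scaled) of Hk1 were 55.7 without and 198 with IFN-beta, of Odc1 224 and 88.6, of Srm 17.4 and 2.58, of Slc7a5 54.6 and 13.3, and of Hif1a 426 and 408. Scaling per kilobase of exon adjusts for length but not for sequence shared with other genes. On it, wild-type cells without IFN-beta had the highest RPM for Odc1 (101), Ldha (84.1) and Hif1a (78.2). Of their 75-base stretches 16.6%, 2.69% and 4.46% were shared, and of those of Pgk1 52.8%, so the order of genes is uncertain. With IFN-beta Hif1a was highest (74.9), followed by Aldoa (55.3) and Slc38a2 (47.0), and Odc1 was at 40.1.

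**Figure D5:**
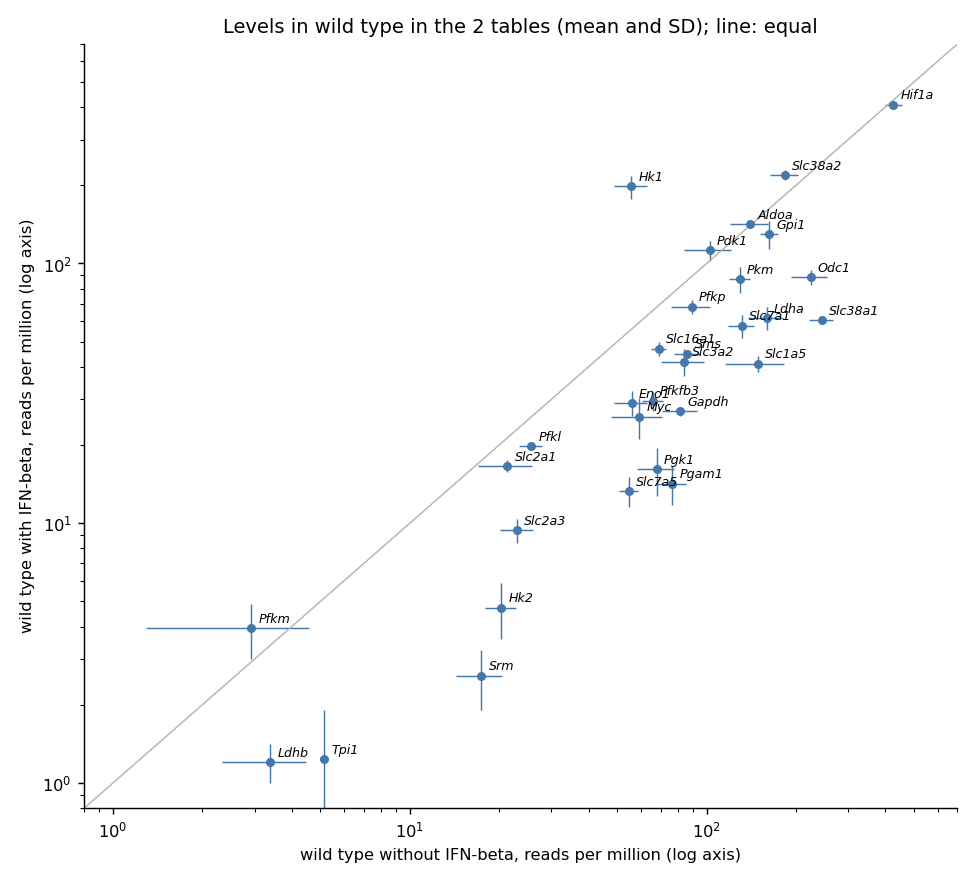
Mean RPM in wild type without IFN-beta (horizontal) and with it (vertical), both on log axes, with SD bars over 3 and 4 libraries; the line marks equal values, and Slc16a3 and Aldoc, near 0, are not drawn. Hk1, at 55.7 and 198, lies farthest above the line, and Srm, at 17.4 and 2.58, lies farthest below it.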

How the data were processed

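Total RNA was sequenced from sorted naive CD8 T cells, and for each stimulation the authors deposited a table of normalized counts, treated here as a signal. Per the submitters' processing notes the tools were Trimmomatic, STAR 2.5, featureCounts and DESeq2 (builds GRCm38, mm10; roles unnamed). The sources used here state no annotation or strand setting, and overlapping, antisense or near-identical genes can share reads. Dividing a library's deposited signal by its smallest step gave whole reads, within 0.01, for 100% of values. The members and lists were chosen with earlier results of these data known.

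Within each table, limma 3.58.1 (R 4.3.3) compared the genotypes on log2(normalized count + 1), using a mean-variance trend, for genes reaching a mean of 10 (9290 genes without IFN-beta, 9964 with it), adjusted by Benjamini-Hochberg, threshold 0.05. The difference of effects was an interaction contrast over 14 libraries and 9078 genes. As alternatives, the recovered reads were tested with edgeR 4.0.16, which called 50 genes higher and 9 lower without IFN-beta, 511 and 500 with it and 38 and 76 for the difference of effects, and with DESeq2 1.42.0. Further alternatives changed the pseudocount (0.5 or 5), the filter (none, or a mean of 50), the scaling (equal totals, quantiles) or the trend (none), added a replicate block or the 16S share, or left out each library. The limma fit was tested on simulated data. Each member with an adjusted p under 0.05 is given with every value, or else the 5 with the smallest p, and in each related list up to 4 passing genes or else those with the smallest p. The result of 1 related gene is not reported here. Pseudogene sharing was searched as 75-base stretches of GENCODE M21 transcripts (GRCm38); promoters and gene positions are from RefSeq (GRCm38.p6).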

Additional observations from a re-analysis of the deposited data

Results flagged for a closer look

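With IFN-beta, Pgam1 in wild type held 120 normalized counts in 1 library against 86.1 to 90.8 in the other 3, and Pdk1 held 668 in 1 wild-type library against 779 to 799 in the other 3. In each case the gap to the nearest library exceeded Dixon's 95% critical value. In all, 58 groups of 4 libraries were examined, and chance gives a few such cases. The genotype effect on Odc1 differed between stimulations by 0.56, by the interaction test described above.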

How the results depend on the processing

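With IFN-beta, Odc1 and Pdk1 passed under all 19 alternatives tried and Hif1a under all but the fit without the trend (limma adjusted p = 0.106). The members called lower numbered 1 without a filter on low values and 1 after rescaling to equal totals, and members called higher and lower numbered 1 and 1 without the trend. Leaving out each library in turn gave 2 to 3 members higher and 1 to 2 lower with IFN-beta, and 0 to 1 higher for the difference of effects, which was also 0 without the trend. Same-numbered libraries correlated at 0.38, -0.02 and 0.30 without IFN-beta and at 0.07, 0.03, 0.13 and 0.24 with it. Between different numbers the lowest correlation was -0.36 and the highest 0.08 in the set that lacked IFN-beta. In the set that received IFN-beta these were -0.17 and 0.08. Each wild-type library correlated most with its same-numbered Morrbid-/- library, except replicate 2 without IFN-beta. The main fits did not treat the numbers as pairs, and whether they mark pairs was not tested. With the replicate number as a replicate block, 1 member was higher without IFN-beta (Myc, limma adjusted p = 0.0355) and 3 with it. Over all genes, 94 were higher and 75 lower under that block without IFN-beta, 730 and 691 with it, and 148 and 163 for the difference. Rescaling to equal totals gave 730 higher and 344 lower with IFN-beta (68.0% of calls higher, against 52.0%). Without a filter 14 and 15 genes passed without IFN-beta and 309 and 283 with it; without the trend 13 and 4, 171 and 134, and 15 and 51. With the 16S share as a covariate 32 genes were lower without IFN-beta, and with a mean of at least 50 there were 5. The cause was not tested. Depth was at most 2963149 recovered reads per library without IFN-beta and 7355337 with it.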
